A study of Homo sapiens with 12 samples.

Results

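The genes of MHC class I antigen presentation were followed in C4-2 cells, a prostate cancer line derived from LNCaP, after knockdown of choline kinase alpha (CHKA). The 9 members, HLA-B, HLA-C, HLA-E, B2M, TAP1, TAP2, TAPBP, PSMB8 and PSMB9, were chosen by symbol and found by Ensembl identifier among the 54127 identifiers counted. Of these 9, 7 passed the expression filter, as did 14501 genes in all. All 12 samples were C4-2 cells grown in RPMI with serum and reverse-transfected with 50 nM of siRNA by Lipofectamine. In 6 samples (SiCHKA, here siCHKA) the siRNA was a pool against CHKA, and in 6 (SiNTCONTROL, here siNT) it was nontargeting. RNA came from flow sorted cells and was sequenced as single-end reads, and the time from transfection to harvest is not given in the sources used here. One line and one pool of siRNAs were used, so loss of CHKA and other effects of that pool cannot be told apart. The study calls its replicates biological, but its counts of them differ. For its gene selection after CHKA knockdown it writes of biological triplicates, and for its boxplots of androgen receptor-regulated genes of 6 biological replicates. No source used here says how the 6 samples of a group divide into separate cultures. The p-values thus measure the spread between these samples, which may be technical.

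Class I molecules show peptides from inside the cell to CD8 T cells and natural killer cells. Proteasomes cut proteins into peptides, and under interferon the standard catalytic subunits are exchanged for those of the immunoproteasome, which include PSMB8 and PSMB9. The transporter formed by TAP1 and TAP2 carries the peptides into the endoplasmic reticulum, where tapasin (TAPBP) bridges it to a heavy chain (HLA-B, HLA-C, HLA-E and others) paired with beta-2-microglobulin (B2M). Tumors, those of the prostate among them, often carry little of this machinery, and LNCaP cells are known for low class I levels.

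Many of these genes share promoter elements through which interferon, NF-kappaB and the NLRC5 complex act, so the stretches that hold such letters are shown first. Promoter windows of 250 bases before to 50 bases after a start were taken from RefSeq (GRCh38.p14) and were found for 8 of the 9 members, all but HLA-E, and both strands were searched. The letters AANNGAAA, the core bound by interferon regulatory factors, were in the windows of 7 of these 8 members and in 22.8% of all 35116 windows. Here and below a member counted if any of its windows held the letters. PSMB8 had more than a single window, so member counts and window shares are not in the same unit. One stretch of 24 bases for each of 6 members is printed 5′ to 3′ on the strand that holds the letters, which are in capitals.
HLA-B, chr6:31357319-31357342, plus strand: gggagaagAAGTGAAActcagggg
HLA-C, chr6:31272228-31272251, plus strand: gttgggagAAGTGAAActcagggg
B2M, chr15:44711373-44711396, plus strand: gaaaaggaAACTGAAAacgggaaa
TAP1, chr6:32853817-32853840, plus strand: ttaggggaAAGCGAAAtcgaaagc
TAP2, chr6:32838786-32838809, minus strand: ggctggggAAGCGAAAgcgaaagc
TAPBP, chr6:33314075-33314098, minus strand: gaaagtgaAAGTGAAAggaggaag

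The B2M, TAP1, TAP2 and TAPBP windows each held a second match that overlaps the one printed, and a PSMB8 window also held a pair of overlapping matches. The letters GGGNNTTCC, a core form of the kappaB sites that NF-kappaB binds, were in 4 of the 8 members (HLA-B, B2M, TAPBP and PSMB8) and in 6.58% of all windows. Of these 4 members HLA-B and TAPBP rose, B2M fell and PSMB8 did not pass the expression filter. Only the stretches of HLA-B, whose flank overlaps that of its stretch above, and of TAPBP are printed.
HLA-B kappaB letters, chr6:31357340-31357363, minus strand: cagcgttGGGGATTCCccactccc
TAPBP kappaB letters, chr6:33314117-33314140, minus strand: cagagcgGGGATTTCCaccgcccc

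TGACG, part of the X2 box of the element that NLRC5 acts through, was in 6 of the 8 members (all but TAP1 and TAPBP) and in 24.6% of all windows. CCAAT, the letters of its Y box, was in 5 of the 8 and in 34.6% of all windows. The AANNGAAA core was in members that rose (TAP1, TAPBP and HLA-B) and in members that fell (TAP2 and B2M). A match is a description of the letters and not of binding.

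CHKA ranged from 1.91 to 4.67 CPM (counts relative to TMM-normalized library size) in siCHKA samples and from 36.7 to 43.3 CPM in siNT samples, so the target was low in every library labelled siCHKA. Reads on genes numbered 12158361 to 20670479 in siCHKA and 10685184 to 24246055 in siNT, at which 3 counts are worth 0.124 to 0.281 CPM. All such floors and counts cover counting error only. The siCHKA libraries formed 2 sets: replicates 1, 3 and 5 differed from replicates 2, 4 and 6 by a chi-square per degree of freedom of 12.5 to 24.9, and within the sets by 2.39 to 9.5, where 1 is counting noise. The siNT pairs ranged from 2.51 to 30.9. Member values are therefore also given with either siCHKA set left out. All 11 prostate luminal markers were detected, with summed levels of 4716 to 5872 CPM in siCHKA and 5750 to 7255 CPM in siNT, 3 higher and 8 lower. Leukocyte markers, whose cells carry much class I, summed to 4.36 to 6.46 CPM against 3.33 to 4.32 CPM, with 9 of 10 below 1 CPM in every sample and CD3E, CD3D and MS4A1 at 0, and the one marker tested, CD68, had means of 4.88 and 2.98 CPM and was called higher. Markers of class II antigen presenting cells summed to 1.39 to 1.98 CPM against 0.584 to 1.11 CPM, with 5 of 6 below 1 CPM in every sample, and HLA-DPA1 at 0.878 and 0.398 CPM on average. The 5 fibroblast markers summed to 24.9 to 32.1 CPM against 15.5 to 21.7 CPM, of which COL1A1 made up most (26.8 and 15 CPM on average, called higher). PDGFRB went the other way (1.37 and 3.74 CPM, called lower), and COL1A2, DCN and LUM were below 1 CPM throughout. Endothelial markers summed to 1.13 to 1.86 CPM against 2.05 to 3.65 CPM, nearly all of it VWF, which was called lower. The part of these markers in the results was not tested.

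With the siRNA pool against CHKA, the class I genes moved in both directions. HLA-B, HLA-E, TAP1 and TAPBP rose, by 1.19- to 1.42-fold, B2M and TAP2 fell to 76.9% and 62.9% of their siNT levels, and HLA-C did not pass the test. Partners thus moved apart at the RNA level: 2 of the heavy chains against B2M, and TAP1 against TAP2. The calls were made with edgeR's quasi-likelihood test over all tested genes at an adjusted p of 0.05, and a large part of the transcriptome passed it: 32.1% of genes were higher and 30.1% lower, 62.2% in all. Of the 7 tested members, 4 were higher and 2 lower, with a median log2 fold change of 0.25, beside 0.03 over all tested genes. With no composition factor in the normalization the calls over all genes were 6666 higher and 2995 lower, in place of 4650 and 4371. In bulk RNA, fewer cells that express a gene and less of its RNA per cell cannot be told apart. Groups did not overlap for 4 of the 7 members, against 40.6% of all tested genes.

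The heavy chains differed in how far they moved. HLA-E, a class I molecule of little variation that presents signal peptides to natural killer cell receptors, changed most. HLA-E (ENSG00000204592) occupies bases 30489509 to 30494194 of chromosome 6, plus strand (GRCh38, as are all gene positions here). Its lowest, median and highest values were 33.5, 35.6 and 39.9 CPM in siCHKA and 23.5, 25.2 and 26.6 CPM in siNT. Every siCHKA sample lay above every siNT sample. The means were 35.8 ± 2.35 and 25.1 ± 1.19 CPM (SD, n = 6 each), a log2 fold change of 0.51 ± 0.06 (SE; edgeR adjusted p = 5.82e-07). It was 0.58 with siCHKA 2, 4 and 6 left out and 0.43 with 1, 3 and 5 left out, and passed the test both times.

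HLA-B (ENSG00000234745; chromosome 6, 31353872 to 31367067, minus strand), a classical heavy chain that presents to CD8 T cells, rose less. It had 40.8, 44.6 and 46.4 CPM as lowest, median and highest in siCHKA and 30.7, 38.1 and 39.9 CPM in siNT. The groups came within 1 CPM of each other without overlapping. Means were 44.1 ± 2.06 and 37.0 ± 3.48 CPM (SD, n = 6 each), a log2 fold change of 0.25 ± 0.06 (SE; edgeR adjusted p = 0.00209), with 0.25 and 0.24 when either set was left out.

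HLA-C (ENSG00000204525; chromosome 6, 31268749 to 31272130, minus strand) is the classical heavy chain read by killer cell inhibitory receptors. It spanned 103 to 115 CPM in siCHKA and 95.2 to 113 CPM in siNT, and the groups overlapped over most of their range. Its log2 fold change was 0.07 ± 0.05 (SE; edgeR adjusted p = 0.26), with a 95% interval of -0.03 to 0.17. With no composition factor in the normalization it was 0.22 and passed the test. Within each sample, HLA-E stood at 0.252 to 0.298 of HLA-C per kilobase of exon in siCHKA and at 0.193 to 0.24 in siNT.

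These 3 heavy chains lie among many near copies. Of the 40-base windows of the canonical transcript, 7.89% of HLA-B, 14.2% of HLA-C and 11.5% of HLA-E occur elsewhere without a mismatch. The search covered the assembled chromosomes of GRCh38 and left out its alternate MHC haplotypes. Reads without a unique alignment were not counted. Whether the authors aligned to such haplotypes is not stated in the sources used here, so the loss of reads may be larger. The C4-2 alleles were not compared with the reference, so levels between heavy chains are less sure than changes within one.

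B2M, the light chain shared by all of them, went the other way. B2M (ENSG00000166710, chromosome 15, 44711358 to 44718851, plus strand) lies outside the MHC and none of its 40-base windows occur elsewhere on the assembled chromosomes. Its values were 149 to 178 CPM in siCHKA, with a median of 158 CPM, and 175 to 242 CPM in siNT, with a median of 212 CPM. siNT replicates 5 and 6, at 175 and 181 CPM, lay near the top of the siCHKA range and made the groups overlap, while the other 4 were at 208 CPM or more. The means were 162 ± 11.7 and 210 ± 28.1 CPM (SD, n = 6 each), a log2 fold change of -0.38 ± 0.08 (SE; edgeR adjusted p = 0.00053). It was -0.32 with siCHKA 1, 3 and 5 left out and -0.44 with 2, 4 and 6 left out, and -0.49 without siNT 5 and 6. Per kilobase of merged exons, summed heavy chains were 1.14 to 1.45 times B2M in siCHKA and 0.748 to 1.01 times in siNT. These ratios did not overlap. Per kilobase of the canonical transcript, B2M averaged 171 CPM in siCHKA and 223 CPM in siNT. HLA-C then averaged 71.1 and 67.7 CPM, HLA-B 28.7 and 24.1 CPM, and HLA-E 14.1 and 9.87 CPM. By that length the sum of the averages was below B2M in both groups, so its place above or below B2M depends on the length used.

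**Figure D1:**
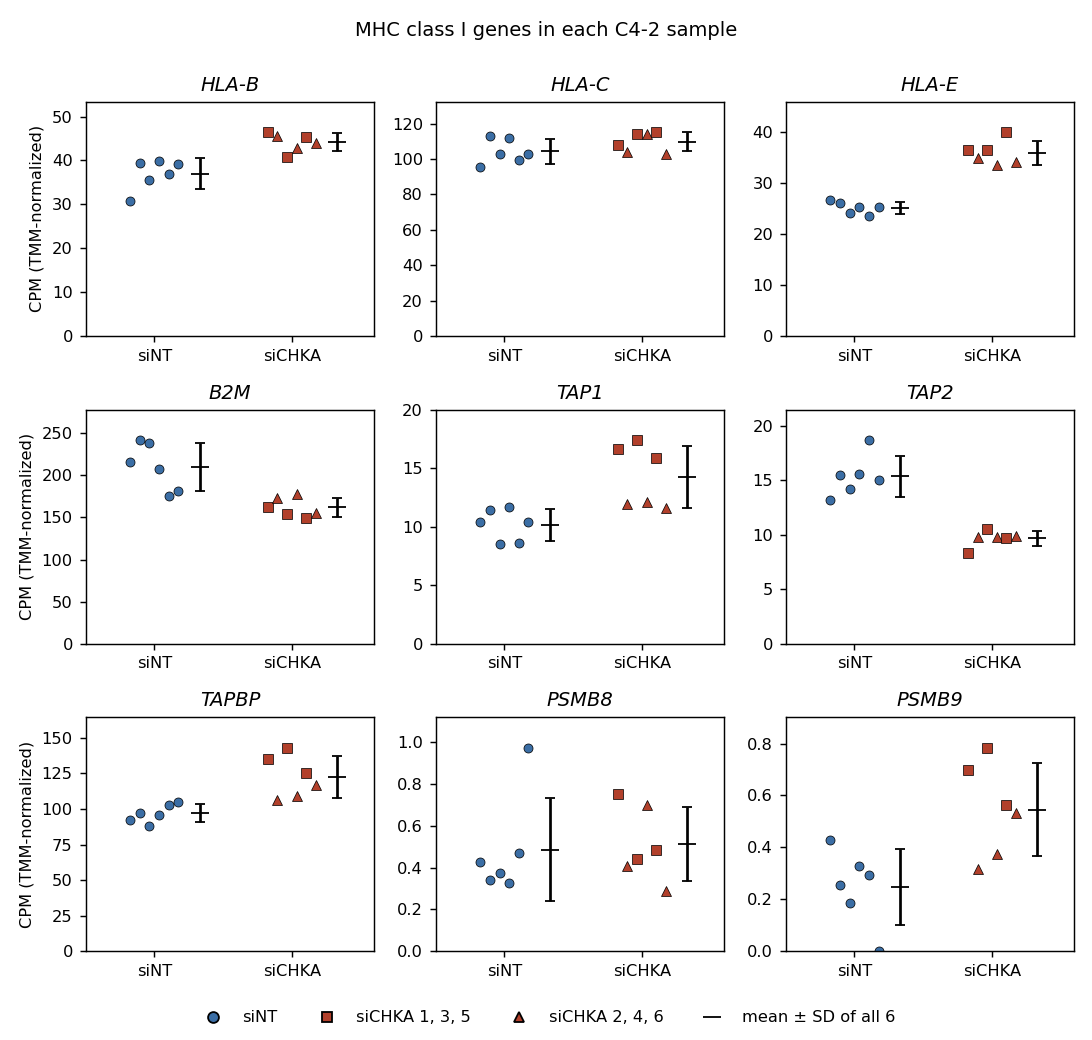
Each panel plots 1 gene in CPM from 0 upward, with siNT samples as circles, siCHKA 1, 3 and 5 as squares and siCHKA 2, 4 and 6 as triangles, and the mean ± SD of all 6 beside them. HLA-B, HLA-E, TAP2 and TAPBP do not overlap between groups, TAP1 and TAPBP are higher in the squares than in the triangles, and PSMB8 and PSMB9 stay below 1 CPM.

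Both subunits of the peptide transporter changed, and they moved in opposite directions. TAP2 (ENSG00000204267; chromosome 6, 32821833 to 32838739, minus strand) had 8.34, 9.82 and 10.5 CPM as lowest, median and highest in siCHKA and 13.2, 15.3 and 18.7 CPM in siNT. All siCHKA samples lay below all siNT samples, by at least 2 CPM. Its means were 9.67 ± 0.709 and 15.4 ± 1.84 CPM (SD, n = 6 each), a log2 fold change of -0.67 ± 0.08 (SE; edgeR adjusted p = 2.73e-06), and either set alone gave nearly the same value (-0.70 and -0.66).

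TAP1 (ENSG00000168394; chromosome 6, 32845209 to 32853816, minus strand) was at 16.6, 17.4 and 15.9 CPM in siCHKA 1, 3 and 5 and at 11.9, 12.1 and 11.6 CPM in siCHKA 2, 4 and 6. The siNT samples ranged from 8.51 to 11.7 CPM. The first set lay well above the controls and the second at their upper end, with siCHKA 6 inside their range. Over all samples the means were 14.2 ± 2.67 and 10.2 ± 1.36 CPM (SD, n = 6 each), with a log2 fold change of 0.48 ± 0.12 (SE; edgeR adjusted p = 0.00257). It was 0.72 (edgeR adjusted p = 1.6e-05) with siCHKA 2, 4 and 6 left out and 0.21 (edgeR adjusted p = 0.0905) with 1, 3 and 5 left out, so the call rests on the latter set.

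Per kilobase of exon, TAP1 exceeded TAP2 by a factor of 2.57 to 4.36 in siCHKA and of 1.01 to 1.72 in siNT. The triangles in the plot of ratios, siCHKA 2, 4 and 6, all lie above the controls. In GENCODE release 44, 21.5% of the canonical TAP1 bases and 35.8% of those of TAP2 are shared with another gene's exons. The authors counted reads on an older annotation, so how many reads there were set aside as ambiguous is not known. The genes that overlap TAP1, PSMB9 and PSMB8-AS1, are on the other strand. No source used here says that the counting used strand, without which reads of the overlap cannot be told apart. PSMB8-AS1 had 23 counts and PSMB9 85 counts over all 12 samples, beside 2544 for TAP1. The gene that overlaps TAP2, ENSG00000250264, is on the same strand as TAP2. It was among the identifiers counted and had 0 counts over all 12 samples. Reads on exons that it shared with TAP2 in the authors' annotation would be set aside as ambiguous. TAP2 per kilobase may thus be too low, and TAP1 over TAP2 too high, in both groups, which was not tested.

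**Figure D2:**
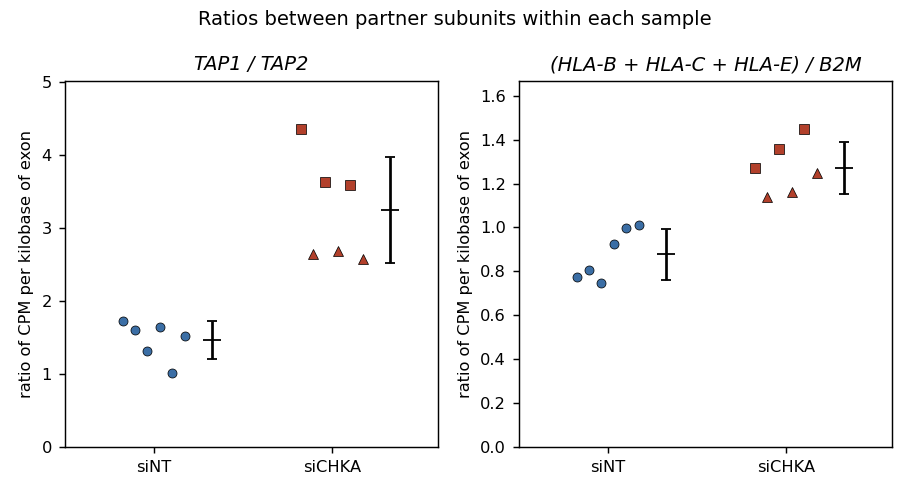
The y axes give the ratio of CPM per kilobase of exon in each sample, TAP1 over TAP2 on the left and the 3 heavy chains over B2M on the right, with siNT as circles, siCHKA 1, 3 and 5 as squares, 2, 4 and 6 as triangles, and the mean ± SD. Both ratios are higher in all 6 siCHKA samples, at 2.57 to 4.36 against 1.01 to 1.72 and at 1.14 to 1.45 against 0.748 to 1.01.

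TAPBP (ENSG00000231925; chromosome 6, 33299694 to 33314284, minus strand) encodes tapasin, which holds empty class I molecules at the transporter. It was at 135, 143 and 125 CPM in siCHKA 1, 3 and 5 and at 106, 109 and 117 CPM in siCHKA 2, 4 and 6, and at 88.2 to 105 CPM in siNT. The second set began just above the highest control. Means were 123 ± 14.5 and 97 ± 6.34 CPM (SD, n = 6 each), a log2 fold change of 0.34 ± 0.07 (SE; edgeR adjusted p = 0.000602). It was 0.48 with siCHKA 2, 4 and 6 left out and 0.19 (edgeR adjusted p = 0.0142) with 1, 3 and 5 left out. Of its 40-base windows, 17.6% occur elsewhere on the assembled chromosomes, and alternate MHC haplotypes were not searched.

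**Figure D3:**
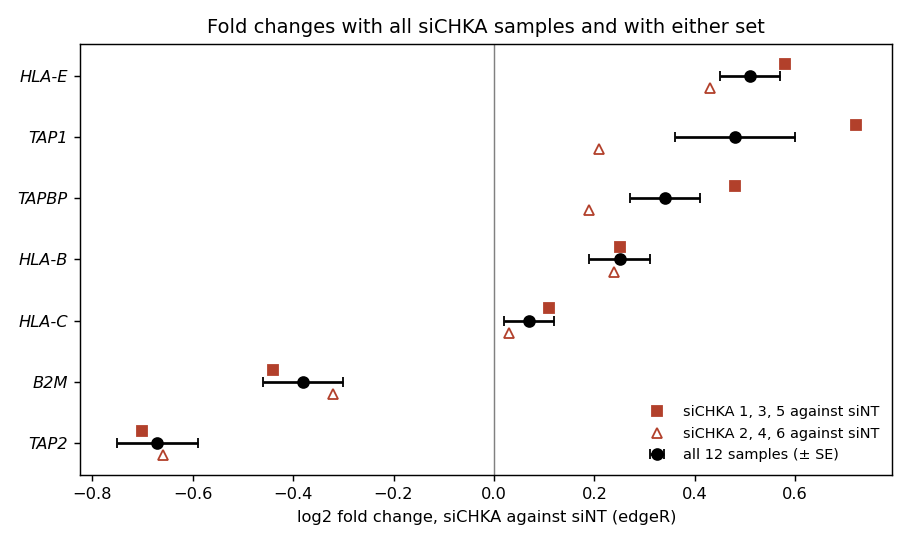
The x axis is the log2 fold change of siCHKA against siNT for the 7 tested genes. Circles with bars are the fit of all 12 samples ± SE, squares the fit with siCHKA 2, 4 and 6 left out, and open triangles the fit with siCHKA 1, 3 and 5 left out. TAP1 (0.72 and 0.21) and TAPBP (0.48 and 0.19) differ most between the sets, and HLA-B (0.25 and 0.24) least.

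The immunoproteasome subunits PSMB8 and PSMB9 were near the limit of detection in both groups. PSMB8 (ENSG00000204264; chromosome 6, 32840717 to 32844679, minus strand) had 6 to 14 counts per siCHKA sample and 5 to 10 per siNT sample, which is 0.29 to 0.753 CPM and 0.327 to 0.973 CPM, and the groups overlapped throughout. PSMB9 (ENSG00000240065; chromosome 6, 32844136 to 32859851, plus strand) had 7 to 16 counts in siCHKA and 0 to 6 in siNT. Its values were 0.318 to 0.784 CPM against 0 to 0.427 CPM. The siCHKA samples had the higher counts throughout, but in CPM the groups overlapped. Neither gene passed the expression filter. An exact permutation test of log2 CPM over all arrangements of the group labels, two-sided and not adjusted for the 9 members, gave p = 0.013 for PSMB9. Its log2 fold change was 1.03 with no filter (edgeR adjusted p = 0.0346) and 1.07 by DESeq2 (adjusted p = 0.0395). Both genes sit within kilobases of TAP1 and TAP2.

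Their constitutive counterparts were abundant. Per kilobase of exon in siNT, PSMB5, which PSMB8 replaces, stood at 86.7 ± 3.72 CPM beside 0.14 ± 0.0704 CPM for PSMB8 (SD, n = 6). PSMB6, which PSMB9 replaces, stood at 83.3 ± 4.69 CPM beside 0.0744 ± 0.0436 CPM for PSMB9. The third pair was less unequal, with PSMB7 at 80.7 ± 6.52 CPM and its immunoproteasome counterpart PSMB10 at 9.83 ± 1.27 CPM. Of these 4 genes PSMB6 fell, with a log2 fold change of -0.44 ± 0.05 (SE; edgeR adjusted p = 6.77e-07), from 111 to 132 CPM in siNT to 85.2 to 94.1 CPM in siCHKA. PSMB5 (-0.03), PSMB7 (0.07) and PSMB10 (-0.09) did not pass the test, and the sign of PSMB5 and PSMB10 turned under some settings.

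By level per kilobase of merged exons in siNT, the members ran from B2M (55.9 to 77.4 CPM) through HLA-C (38 to 45 CPM) and TAPBP (13.3 to 15.9 CPM) to HLA-E (8.04 to 9.12 CPM) and HLA-B (6.65 to 8.64 CPM). TAP1 (1.8 to 2.47 CPM) and TAP2 (1.28 to 1.8 CPM) followed, with PSMB8 and PSMB9 last. HLA-E and HLA-B overlapped, as did TAP1 and TAP2, and PSMB8 and PSMB9. By the length of the canonical transcript, HLA-B (20 to 26 CPM) came before HLA-E (9.22 to 10.5 CPM), so the order of these 2 depends on the length used. In siCHKA samples B2M remained the highest at 47.6 to 56.9 CPM per kilobase of merged exons, with HLA-C at 41 to 45.8 CPM.

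Log2 CPM of each gene, centred on its siNT mean, was compared with that of B2M over the 12 samples. Out of 9629 genes compared, the closest 5 were COPS3, LYSMD2, ENSG00000108294, RPP30 and GTF2A2. Their root mean square differences from B2M were 0.0618 to 0.07 on the log2 scale. Their log2 fold changes ran from -0.40 to -0.36, and such likeness to B2M follows from how they were picked.

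Other genes of the pathway were grouped by role in 7 lists. Of their 82 genes 74 were tested, 19 higher and 28 lower, with a median log2 fold change of -0.09. That is 63.5% called, beside 62.2% of all tested genes, so the lists together were called about as often as any genes. By list the share ran from 33.3% to 83.3%, on 6 to 22 tested genes each, and the counts below are to be read against 32.1% higher and 30.1% lower over all genes.

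Among other class I and class I-like genes, 11 of 16 were tested, 1 higher and 6 lower, with a median of -0.21. MICB, a stress-induced ligand of the activating receptor NKG2D, fell from 2.24 to 3.5 CPM in siNT to 0.629 to 1.29 CPM in siCHKA, a log2 fold change of -1.85 ± 0.17 (SE; edgeR adjusted p = 6.35e-08). ULBP2, another NKG2D ligand, fell by 0.39 ± 0.11 on the log2 scale (SE; edgeR adjusted p = 0.0045), and by 0.32 (edgeR adjusted p = 0.0624) with siCHKA 2, 4 and 6 left out. MR1, which presents vitamin B metabolites to mucosal T cells, rose from 5.29 ± 0.676 to 8.46 ± 1.37 CPM (SD, n = 6 each), a log2 fold change of 0.67 ± 0.12 (SE). HLA-F, at 2 to 3.49 CPM, had a log2 fold change of 0.31 ± 0.14 (SE; edgeR adjusted p = 0.0628).

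Of the 10 genes of peptide loading and trimming, all tested, 7 fell and the other 3 did not pass the test, with a median of -0.55. CALR (calreticulin), a chaperone of the peptide loading complex, went from 2612 ± 142 to 1264 ± 65.1 CPM (SD, n = 6 each), a log2 fold change of -1.05 ± 0.05 (SE; edgeR adjusted p = 3.69e-11). CANX (calnexin), which holds newly made heavy chains, went from 1502 ± 82.8 to 896 ± 40.5 CPM, a log2 fold change of -0.74 ± 0.05 (SE; edgeR adjusted p = 1.99e-09). Both chaperones fold many other glycoproteins as well. Tapasin thus rose in the same samples in which these chaperones fell.

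Of 9 proteasome counterparts and activators, 2 were higher and 1, PSMB6, lower. The higher ones were PSME1 (0.29 ± 0.06, SE) and PSME2 (0.19 ± 0.07), which form the PA28 activator. PSME2 lost its call under 6 of 24 other settings. The 7 cytosolic peptidases held 1 higher and 3 lower. THOP1, which destroys peptides in the cytosol, had a log2 fold change of -0.56 ± 0.05 (SE), NPEPPS one of 0.24 ± 0.05 and TPP2 one of -0.19 ± 0.06, which was -0.08 and did not pass with siCHKA 2, 4 and 6 left out.

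**Figure D4:**
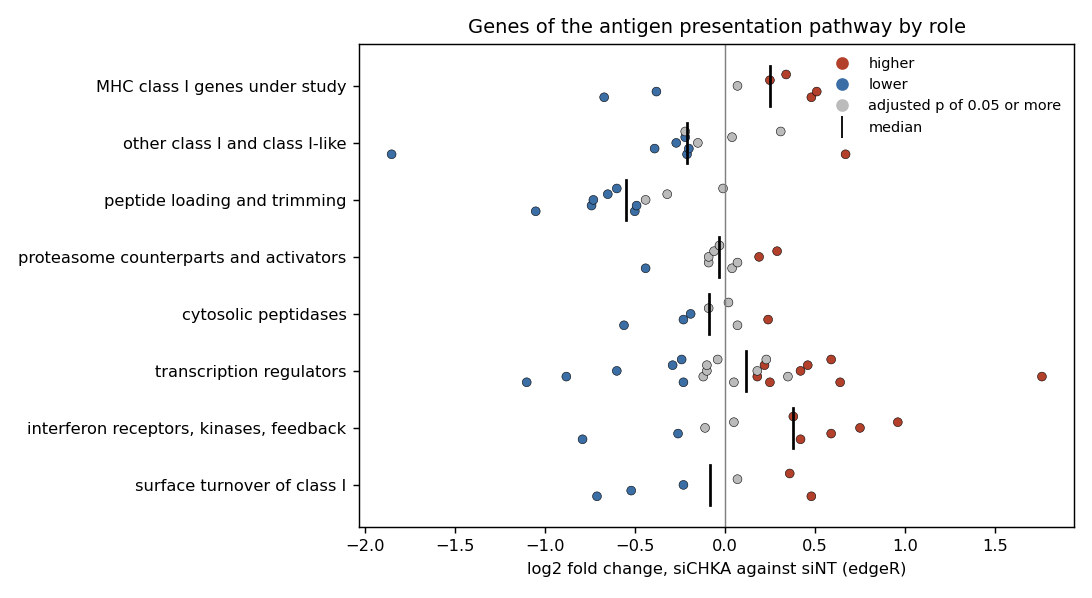
Each point is a tested gene placed by its log2 fold change of siCHKA against siNT, with lists by role on the y axis, called genes in red (higher) or blue (lower), other genes in grey, and a bar at each median. The peptide loading list lies at or left of 0 (median -0.55), and the receptor and kinase list has the highest median (0.38).

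Of 22 transcription regulators of class I genes, 8 were higher and 6 lower, with a median of 0.11. NLRC5, the activator of class I promoters, was at 2.74 to 3.75 CPM in siCHKA and 1.83 to 3.84 CPM in siNT, a log2 fold change of 0.35 ± 0.16 (SE; edgeR adjusted p = 0.0705). IRF1, which binds the AANNGAAA core, was at 1.5 to 3.33 CPM against 1.76 to 3.3 CPM (log2 fold change 0.05 ± 0.20, SE), and its sign turned when single samples were left out.

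The NF-kappaB members of the alternative pathway rose. RELB went from 0.341 to 1.06 CPM in siNT to 2.05 to 3.28 CPM in siCHKA, a log2 fold change of 1.76 ± 0.20 (SE; edgeR adjusted p = 9.17e-07), and its partner NFKB2 from 42.2 ± 4.19 to 66.1 ± 8.49 CPM (SD, n = 6 each; log2 fold change 0.64 ± 0.08, SE). EZH2, the polycomb methyltransferase known to silence class I genes, went from 70 to 82.3 CPM down to 29.6 to 40.9 CPM, a log2 fold change of -1.10 ± 0.07 (SE; edgeR adjusted p = 4.47e-10). NFYB, a subunit of the factor that binds CCAAT, had a log2 fold change of -0.88 ± 0.06 (SE; edgeR adjusted p = 4.99e-10).

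Both interferon receptors had 1 subunit higher and 1 lower. Of 10 receptors, kinases and feedback genes 9 were tested, 5 higher and 2 lower, with a median of 0.38. Of the type I receptor, IFNAR1 went from 113 to 140 CPM down to 65.7 to 84.5 CPM (log2 fold change -0.79 ± 0.06, SE; edgeR adjusted p = 1.23e-08), and IFNAR2 from 7.59 to 10.5 CPM up to 11.7 to 14.9 CPM (0.59 ± 0.08, SE; edgeR adjusted p = 1.04e-05). For interferon gamma, IFNGR2 rose from 23.6 ± 1.34 to 39.5 ± 1.44 CPM (SD, n = 6 each; log2 fold change 0.75 ± 0.05, SE). IFNGR1, its ligand-binding partner, went from 50.2 ± 3.2 to 41.8 ± 6.39 CPM (-0.26 ± 0.09, SE; edgeR adjusted p = 0.0139), and to a log2 fold change of -0.09 (edgeR adjusted p = 0.237) with siCHKA 1, 3 and 5 left out.

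Genes that remove class I from the surface were mixed, with 2 of 6 tested higher and 3 lower. SUSD6 and WWP2, which act together in the degradation of class I, had log2 fold changes of -0.71 ± 0.07 and -0.52 ± 0.07 (SE). IRGQ, which directs class I to autophagy, had 0.48 ± 0.10 and the ubiquitin ligase STUB1 0.36 ± 0.06.

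All members but B2M lie in the MHC on chromosome 6. Between the starts of HLA-F and TAPBP (29722775 to 33299694) 103 genes were tested, 31 higher and 25 lower, with a median log2 fold change of 0.05. Without the members the region held 97 tested genes, 27 higher and 24 lower, with a median of 0.04. The shares called were 54.4% and 52.6%, beside 62.2% of all tested genes. The nearest tested neighbours of TAPBP both rose: RGL2, 752 bases away, from 60 to 84.3 CPM (log2 fold change 0.49 ± 0.06, SE) and ZBTB22, 122 bases away, from 16.9 to 24 CPM (0.50 ± 0.08). Around the other members the neighbours differed: MICA, next to HLA-B, had a log2 fold change of -0.20, GNL1, next to HLA-E, one of 0.00, HCG27, next to HLA-C, one of 0.89, and SPG11, next to B2M, one of 0.20. RPL3P2 (0.09), RANP1 (-0.56), SORD (0.05), HLA-DMA (0.14) and HLA-DQB1 (0.63) were the remaining neighbours, and HCG27, RANP1 and HLA-DQB1 were under 1.2 CPM on average.

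**Figure D5:**
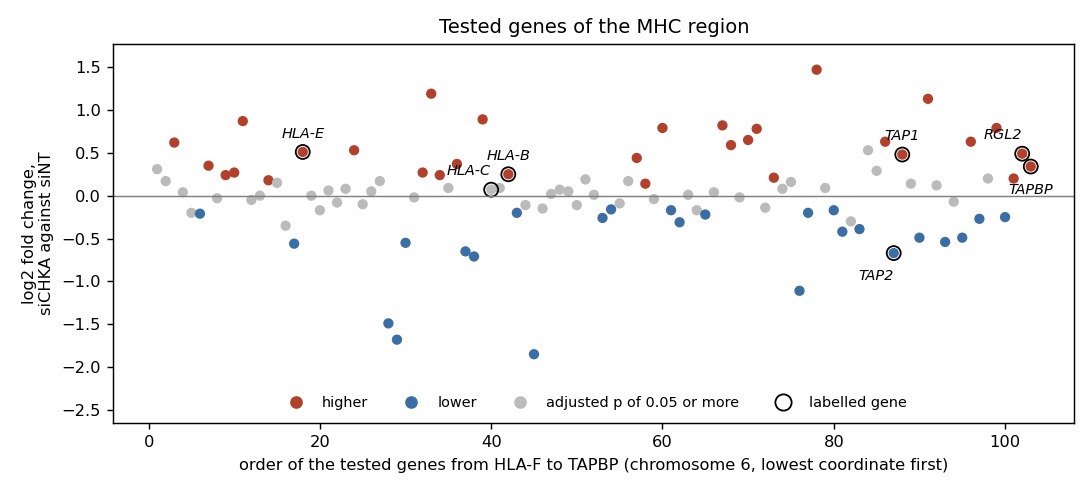
The x axis is the rank of the 103 tested genes along the MHC region and the y axis the log2 fold change of siCHKA against siNT, with called genes in red (higher) or blue (lower), others in grey, and circles around the labelled genes. Higher (31) and lower (25) genes are interspersed along the region, and TAP1 and TAP2 are adjacent in rank with opposite signs.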

How the data were processed

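RNA-seq of 6 siCHKA and 6 siNT samples, grouped by the label of sample group, was analysed. The authors aligned reads to GRCh37 with TopHat, counted them per gene with HTSeq and deposited raw counts; the submitters' processing notes name TopHat2 2.0.4, HTSeq 0.5.3p9 and DESeq 1.10.1. Reads without a unique alignment (26.1 to 30.6% of the entries in the files), ambiguous reads (2.82 to 2.93%) and reads on no gene (3.95 to 5.97%) stayed out of library sizes. Each sample's 4 files were added up. Names, positions and exon lengths came from GENCODE release 44 by Ensembl identifier (82.8% matched). The fit used edgeR 4.0.16 (R 4.3.3) after filterByExpr and TMM, with the quasi-likelihood test without covariates and Benjamini-Hochberg adjustment over 14501 genes. Standard errors are the log2 fold change over the root of F, and 95% intervals take the errors as normal. Alternatives were RLE, DESeq2 1.42.0, other filters, a replicate block, left-out samples, 1 count file, thinning, a test against a 1.2-fold change and, chosen after seeing the data, library size only, siNT 5 and 6 left out and canonical lengths. Python 3.11.15 with numpy 2.4.6 and pandas 2.3.3 was used, and the fits were tested on simulated counts. The members and lists were chosen with earlier results of these data known. Named beside the members were CHKA, set regulators and proteasome genes, at most 2 called genes per direction and list with the smallest p, the nearest tested neighbours, and the 5 genes closest to B2M. Some genes of the lists are not reported here by name. Proteins were not analysed here.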

Additional observations from a re-analysis of the deposited data

Results flagged for a closer look

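The 9 members and CHKA in each group gave 20 groups of 6 samples. Of these, 2 held a sample far from the others by Dixon's ratio of gap to range, taken in log2 CPM at its 95% critical value. Chance flags about 1 in 20 such groups. TAP2 in siCHKA replicate 1 was at 8.34 CPM, below 9.68 to 10.5 CPM in the other siCHKA samples (ratio 0.654), and without that replicate TAP2 stayed lower in siCHKA. PSMB8 in siNT replicate 6 was at 0.973 CPM, from 10 counts, above 0.327 to 0.471 CPM in the other siNT samples (ratio 0.687).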

How the results depend on the processing

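HLA-E and TAP2 kept their direction and passed the test under all 24 other settings, at log2 fold changes of 0.43 to 0.66 and -0.72 to -0.51. Leaving out 1 sample at a time, the members gave 4 higher and 2 lower each time, with a median of 0.20 to 0.27, and of the genes named IRF1 alone turned sign (-0.07 to 0.20). With siCHKA 1, 3 and 5 left out, TAP1 was 0.21 (adjusted p = 0.0905) and IRF1 -0.15. With 2, 4 and 6 left out, PSMB5 was 0.02. With 1 count file per sample, PSMB5 was 0.03, IRF1 -0.18 and the lower genes of the MHC region numbered 15. Tested against a 1.2-fold change, 2 members were higher (HLA-E and TAP1) and 1 lower (TAP2), while HLA-B (0.25, adjusted p = 0.533), B2M (-0.38, adjusted p = 0.0658) and TAPBP (0.34, adjusted p = 0.126) no longer passed. The other lists then held 8 higher and 16 lower genes, the MHC region 16 and 12, and all genes 2710 and 2581. That test asks for more than a difference from 0. With library size only, the median of all genes moved from 0.03 to 0.19 and the split from 4650 higher and 4371 lower to 6666 and 2995. The members' median was then 0.40, HLA-C 0.22 (adjusted p = 0.00101), PSMB10 0.07 and PSMB5 0.12, with 16 lower in the other lists and 49 higher and 13 lower in the MHC region. Under DESeq2, no filter, and siNT 5 and 6 left out, PSMB9 was tested and the higher members numbered 5; in the last of these it passed the filter through the group where it is high. For other reversals and lost calls the cause was not tested. When replicate numbers entered as a block, 4 members were higher and 2 lower (all genes 4494 and 4273). The numbers did not pair the samples: same-numbered samples correlated from -0.396 to 0.321, others from -0.298 to 0.337, and 1 of 6 siCHKA samples matched its own number best. Depth limits PSMB8 and PSMB9, whose counts are near the floor of 3 counts.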
